A study of Mus musculus with 12 samples.

Results

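The mitochondrial respiratory chain passes electrons to oxygen and pumps protons across the inner membrane, and its nuclear-encoded subunits were followed in the left ventricle (LV) of 12 mouse offspring. The members were the protein-coding genes whose symbols begin with Nduf and a letter a, b, c, s or v before a number, Sdha to Sdhd, the symbols that begin with Uqcr and those of the Cox4 to Cox8 series. Assembly factors named Ndufaf were left out, as was any gene with fewer than 10 counts in more than 9 samples. Of 46983 genes in the count files, 67 matched and 66 stayed, since Cox8c had no read in these libraries. Just inside the rule was Cox7b2, with 82 reads in all and 9 samples under 10. Another 6 matching symbols belonged to processed pseudogenes and were not used. By complex there were 35 members of complex I, 4 of complex II, 8 of complex III and 19 of complex IV, with Ndufa4 and its relative Ndufa4l2 counted in complex IV.

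All 12 offspring were aged 12 weeks, came from matings of wild-type FVB females with males heterozygous for a null allele of Hif1a, and fell into 4 groups of 3. Non-diabetic Wt and non-diabetic Hif1a+/- offspring were born to dams that did not receive streptozotocin, a toxin of the insulin-producing beta cells. Diabetic Wt and diabetic Hif1a+/- offspring were born to dams made diabetic with it before mating, so "diabetic" names the pregnancy and not the offspring. The Hif1a allele was global and not limited to heart muscle, the sires were not diabetic, and animals of a group came from different litters, which the labels do not name. Hif1a encodes the oxygen-regulated subunit of the transcription factor HIF-1. The comparisons address what each of these conditions does to LV expression, alone and together.

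Complex I (NADH dehydrogenase) and complex II (succinate dehydrogenase) feed electrons into the chain, complex III (the cytochrome bc1 complex) passes them to cytochrome c, and complex IV (cytochrome c oxidase) reduces oxygen. Heart muscle is among the tissues richest in these complexes, and several complex IV subunits have a heart and muscle form beside a form found in most tissues. HIF-1 is known to shift the chain in low oxygen, through targets that include the isoform Cox4i2 and Ndufa4l2.

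Total counts were between 16132442 and 39812939 per library, so sampling noise was small for most members and precision was set by the spread among 3 animals. The 10 cardiomyocyte markers were present throughout, with summed levels of 113007 to 131352 CPM, the counts scaled to a common library total after TMM normalisation, and 4 atrial markers together reached at most 70.8 CPM. Sex is female in the sample labels but male in the series' design text. Y-linked reads were between 3566 and 7701 in 11 libraries, with 5 to 176 Xist reads, while diabetic Hif1a+/- replicate 72 had 26 and 3599. Without it the members' median log2 fold change was 0.14 for maternal diabetes among Hif1a+/- offspring, -0.06 for genotype in diabetic pregnancy, 0.06 for diabetic Hif1a+/- against non-diabetic Wt and 0.01 for the interaction. Hif1a itself had 78.8 to 89.4 CPM in non-diabetic Hif1a+/- against 55.7 to 71.8 CPM in non-diabetic Wt, and 64.8 to 81.5 CPM in diabetic Hif1a+/- against 47.9 to 59.3 CPM in diabetic Wt. Within each pregnancy the libraries labelled Hif1a+/- were above those labelled Wt. Across pregnancies the ranges of diabetic Hif1a+/- and non-diabetic Wt overlapped, and those of non-diabetic Hif1a+/- and diabetic Wt did not. The reads were not split by exon, so this value does not check the replaced early exon, and the genotypes rest on the labels.

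The members took between 3.65% and 4.64% of all counts. By CPM over the 12 libraries the highest were Cox4i1, the largest nuclear-encoded subunit of complex IV, at 2152 CPM, Cox6a2, the heart and muscle form of subunit 6a, at 1954 CPM, and Uqcrc1, a core protein of complex III, at 1879 CPM. Divided by exon length, Cox6a2 led with 2873 CPM per kb, followed by Cox8b with 2021 CPM per kb and Cox7a1 with 1812 CPM per kb, all heart and muscle forms of complex IV. The study's methods describe 3′-end libraries, in which reads need not scale with length, so both scales are given. At the other end Cox7b2 averaged 0.30 CPM, Cox6b2, a testis form, 1.48 CPM, Cox4i2 12.2 CPM and Ndufa4l2 19.1 CPM. Ndufs5, Ndufb2 and Ndufb4, accessory subunits of complex I, had 24.0, 35.3 and 49.7 CPM. Reads that matched more than 1 place were given to no gene, and these were 12.4% to 17.0% of the reads tallied, so levels of members with near-identical copies are uncertain. Exons of 22 members also share bases with another gene, the most in Ndufb6 at 39.0%, and whether the counting used strand is not given in the sources used here.

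The promoters of these genes are given as a description, and no relation between their sequence and the levels was tested. RefSeq windows from 250 bases before to 50 bases after the start were available for 53 of the 66 members (GRCm38.p6). Words searched on both strands were GCGCANGCG (the core of the nuclear respiratory factor NRF1), CCGGAAG (ETS factors such as GABPA), AAGATGGC (YY1), ACGTG (the core of the hypoxia response element) and GGGCGG (Sp1). The NRF1 word was in 13 members, or 24.53%, against 7.03% of all 27025 genes in the same table. The ETS word was in 20.75% against 9.93%, and the YY1 word in 13.21% against 3.19%. All 7 members with the YY1 word were complex I subunits, which made up 31 of the 53 members with a window. Complexes II, III and IV had only 3, 5 and 14 such members. The hypoxia word was in 20.75% of members and 21.78% of all genes, and the Sp1 word in 41.51% and 38.2%. These shares describe letters in a window, not bound sites. Capitals mark the NRF1, ETS, YY1 and hypoxia words in 5 promoters, chosen as those of members described later that hold 1 kind each or a mixture, and Sp1 words are not marked. Overlapping matches that start at different bases were counted separately, and the NRF1 core is nearly palindromic. Sdha (chr13:74350191-74350490, minus strand) held 3 NRF1 words and 1 hypoxia word. Ndufs7 (chr10:80249199-80249498, plus strand) held 1 YY1 word. Cox6a1 (chr5:115348909-115349208, minus strand) held 3 NRF1 words and 1 ETS word. Cox8a (chr19:7217567-7217866, minus strand) held 2 ETS words. Cox8b (chr7:140900397-140900696, minus strand), the heart and muscle partner of Cox8a, held 2 hypoxia words and none of the others marked.
Sdha: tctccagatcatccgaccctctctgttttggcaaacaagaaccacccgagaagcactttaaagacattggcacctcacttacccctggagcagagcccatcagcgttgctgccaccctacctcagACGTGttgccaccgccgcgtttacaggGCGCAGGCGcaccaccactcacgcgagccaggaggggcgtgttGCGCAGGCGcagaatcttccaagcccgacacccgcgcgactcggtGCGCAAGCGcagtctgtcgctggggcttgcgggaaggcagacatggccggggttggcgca
Ndufs7: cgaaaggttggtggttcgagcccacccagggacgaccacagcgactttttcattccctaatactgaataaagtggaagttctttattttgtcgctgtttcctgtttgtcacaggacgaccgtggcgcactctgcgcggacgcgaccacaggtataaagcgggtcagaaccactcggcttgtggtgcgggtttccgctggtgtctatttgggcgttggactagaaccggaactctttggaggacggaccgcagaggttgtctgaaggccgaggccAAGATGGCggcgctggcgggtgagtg
Cox6a1: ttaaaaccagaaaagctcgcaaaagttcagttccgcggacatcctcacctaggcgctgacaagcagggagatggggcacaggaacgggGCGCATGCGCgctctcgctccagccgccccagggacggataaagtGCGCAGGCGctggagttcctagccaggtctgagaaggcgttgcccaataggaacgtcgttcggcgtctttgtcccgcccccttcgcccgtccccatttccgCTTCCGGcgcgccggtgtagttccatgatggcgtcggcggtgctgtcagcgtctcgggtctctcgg
Cox8a: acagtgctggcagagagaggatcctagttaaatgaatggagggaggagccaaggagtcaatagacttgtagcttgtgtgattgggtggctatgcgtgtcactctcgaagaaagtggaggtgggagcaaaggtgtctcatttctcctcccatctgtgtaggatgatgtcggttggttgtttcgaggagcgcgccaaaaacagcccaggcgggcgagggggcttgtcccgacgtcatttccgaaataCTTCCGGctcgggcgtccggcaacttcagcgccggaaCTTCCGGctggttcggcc
Cox8b: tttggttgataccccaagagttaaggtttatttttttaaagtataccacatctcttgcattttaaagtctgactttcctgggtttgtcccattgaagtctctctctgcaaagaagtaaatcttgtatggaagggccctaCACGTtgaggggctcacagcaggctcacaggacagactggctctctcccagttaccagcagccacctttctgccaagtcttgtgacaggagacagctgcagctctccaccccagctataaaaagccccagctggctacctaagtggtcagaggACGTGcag

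Across the 12 libraries the members of all 4 complexes were high or low together, in an order that crossed the groups. In each library members were counted against their own mean over the 12 libraries. In Wt, 64 of 66 members were above it in non-diabetic replicate 89, 62 in diabetic replicate 80 and 59 in diabetic replicate 50, but 4 in non-diabetic replicate 42, 4 in diabetic replicate 7 and 11 in non-diabetic replicate 25. In Hif1a+/- offspring, non-diabetic replicates 14, 32 and 44 had 1, 22 and 13 members above their mean, and diabetic replicates 66, 72 and 77 had 48, 52 and 37. The Wt groups each held libraries at both ends, whereas the Hif1a+/- groups lay on opposite sides. Replicate 14 was the lowest library for 31 members, where it was lowest for 8.66% of all genes. Diabetic Wt replicate 80 was the highest for 41 members, where it was highest for 12.79% of all genes. The 3 libraries with the lowest member levels, replicates 7, 14 and 42, also had the largest shares of reads outside annotated genes, at 4.61%, 4.55% and 4.35%, and the part of this in the result was not tested. Cox5a, a subunit of complex IV on the matrix side, did not follow the order, with its highest value of 483 CPM in replicate 7. The order was not particular to the members. Over 1593 other tested genes with at most 600 coding bases, the median log2 deviation had the members' sign in all 12 libraries. It was -0.11, -0.10 and -0.07 in replicates 7, 14 and 42, where the members had -0.14, -0.21 and -0.15. In replicates 89, 50 and 80 it was 0.08, 0.03 and 0.11, where the members had 0.15, 0.15 and 0.22. The part of coding length in this order was not tested.

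**Figure D1:**
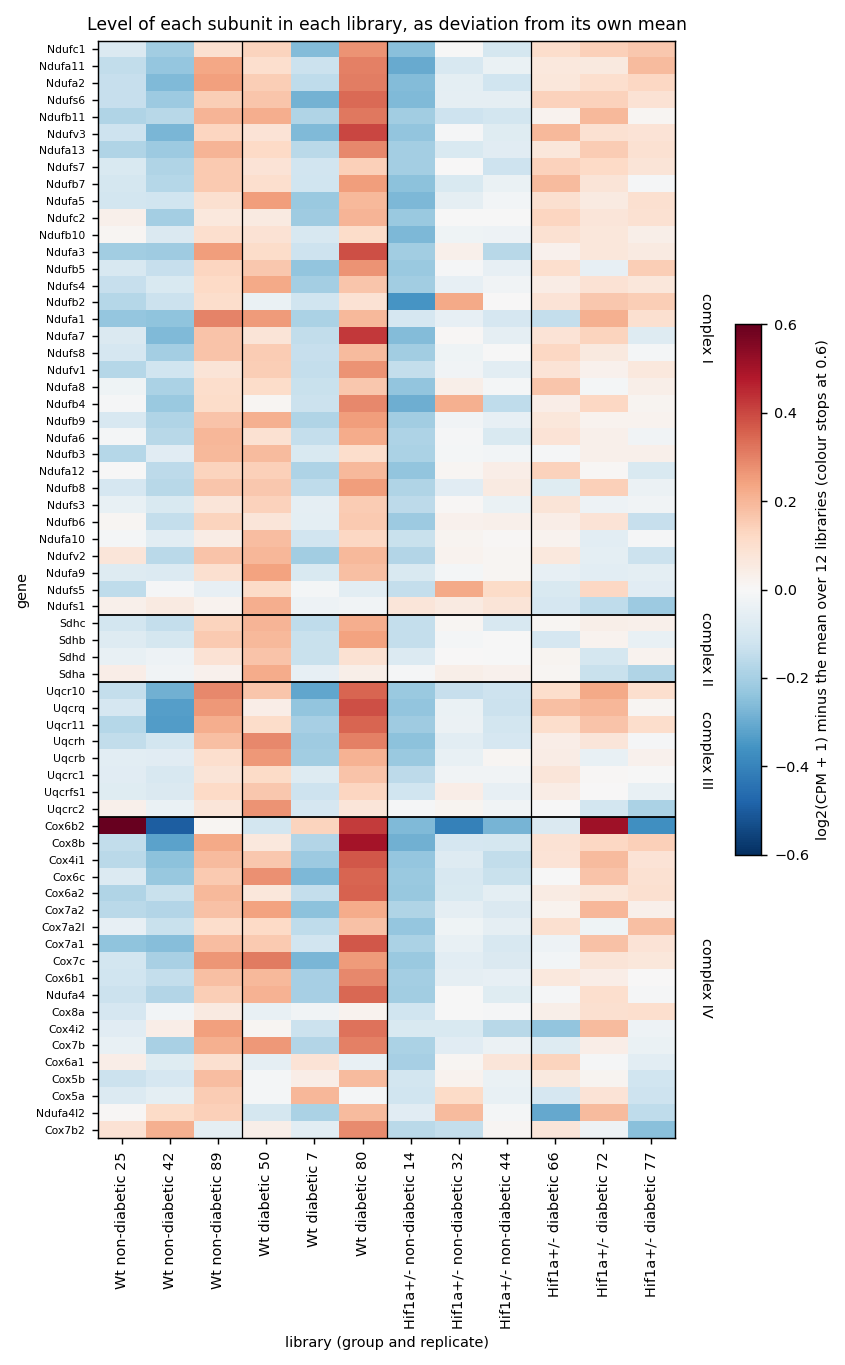
Colours give each member's log2(CPM + 1) minus its mean over the 12 libraries, with 1 row per member shown, grouped by complex, and 1 column per library grouped by genotype and pregnancy. Replicates 89, 50 and 80 are mostly above the mean and replicates 42, 7 and 14 mostly below it in all 4 complexes.

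The median within-group standard deviation (SD) on the log2 scale was 0.159 for the members and 0.159 for all tested genes. It was 0.125 for the 1710 genes at 100 CPM or more, the level of most members, so the median of the members was above that of genes at this level. By complex the median was 0.159 in complex I, 0.116 in complex II, 0.166 in complex III and 0.177 in complex IV. Cox8a had the smallest SD, 0.0567, and Cox6b2, at the edge of detection, the largest, 0.449. In Wt the level of complex I, the mean log2(CPM + 1) of its members, was 8.44 ± 0.15 (SD, n = 3) without and 8.54 ± 0.19 (SD, n = 3) with maternal diabetes. In Hif1a+/- offspring it was 8.40 ± 0.11 (SD, n = 3) and 8.52 ± 0.02 (SD, n = 3). The diabetic Hif1a+/- libraries, at 8.50 to 8.54, were all above the non-diabetic ones, at 8.27 to 8.48.

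Complex III and complex IV had the same order of groups as complex I, and complex II did not. Complex III stood at 9.66 ± 0.17 and 9.77 ± 0.23 (SD, n = 3) in non-diabetic and diabetic Wt and at 9.59 ± 0.07 and 9.73 ± 0.04 (SD, n = 3) in the Hif1a+/- groups. Complex IV stood at 7.81 ± 0.15 and 7.90 ± 0.19 (SD, n = 3) in Wt and at 7.71 ± 0.07 and 7.85 ± 0.07 (SD, n = 3) in Hif1a+/- offspring. For both, every diabetic Hif1a+/- library was above every non-diabetic one, by 9.69 to 9.76 against 9.51 to 9.65 and by 7.80 to 7.93 against 7.63 to 7.76. Complex II was 9.95 ± 0.09 and 10.03 ± 0.17 (SD, n = 3) in Wt and 9.92 ± 0.05 and 9.92 ± 0.02 (SD, n = 3) in Hif1a+/- offspring, with overlap throughout. No test is given for these levels, since they are scores over chosen members. Sdhd, Sdhc, Sdhb and Sdha of complex II have 477, 507, 846 and 1992 coding bases. Fold changes among Hif1a+/- offspring were ordered by coding length, as given below, and its part in the contrast of complex II was not tested. In whole tissue, fewer cells of a type and less RNA per cell cannot be told apart.

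**Figure D2:**
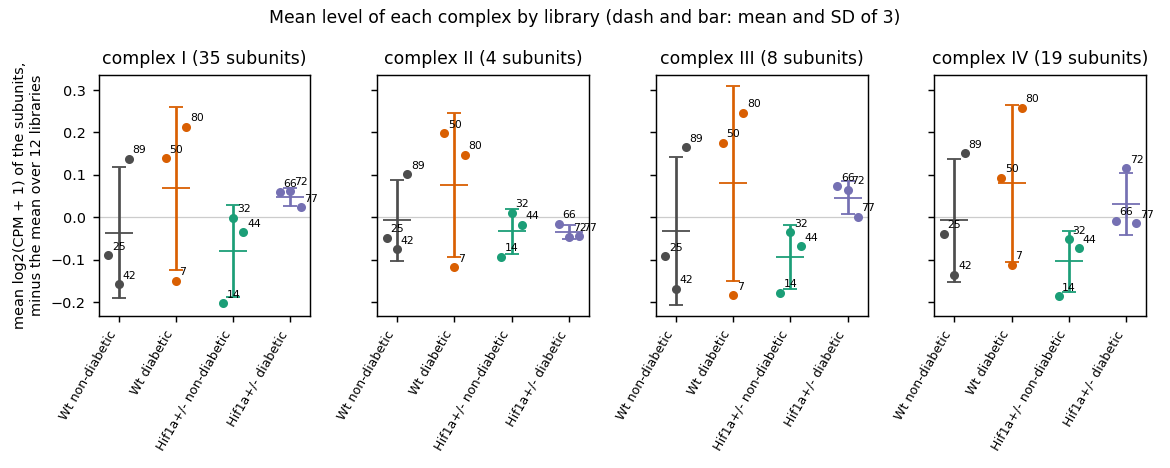
Points give each library's mean log2(CPM + 1) over the members of a complex, minus the mean over the 12 libraries and numbered by replicate, with a dash and bar for the mean and SD of 3 libraries in each group. Diabetic Hif1a+/- libraries lie above non-diabetic Hif1a+/- libraries in complexes I, III and IV, and the groups overlap in complex II.

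Maternal diabetes among Hif1a+/- offspring separated the most members. Of 65 members tested, 58 had a higher mean with maternal diabetes, and the median log2 fold change was 0.13 against -0.0059 for all 14706 genes tested. The median was 0.08 without non-diabetic Hif1a+/- replicate 14 and at most 0.19 with another library left out. For 31 members, or 47.69%, all 3 diabetic libraries were above all 3 non-diabetic ones, where this held for 11.2% of all genes. Only Ndufs1 was apart in the lower direction, where 13.2% of all genes were. No member passed an adjusted p of 0.1 in edgeR's quasi-likelihood test, nor did any other gene (0% called). Without adjustment 1 member had p under 0.05, against 12% of all genes. DESeq2 called 0 members and 1.44% of all genes, and limma-voom called 1 member, Ndufs1, and 6.37% of all genes. Without replicate 72, 35 members were apart and higher, with 15.44% of all genes, and 2 were apart and lower, with 17.73% of all genes. The share of reads outside annotated genes also separated these groups. It was 3.65% to 4.55% in non-diabetic and 3.50% to 3.61% in diabetic Hif1a+/- libraries, and its part in the members' values was not tested.

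By complex, 16 of 35 members of complex I, 0 of 4 of complex II, 5 of 8 of complex III and 10 of 18 of complex IV were apart and higher. This held for 11.2% of all genes, and complex II has too few members for its 0 to be read against that share. The median log2 fold change was 0.15 in complex I, 0.01 in complex II, 0.13 in complex III and 0.15 in complex IV. These genes share their libraries, so the number apart does not count independent observations. The 7 members with a lower mean were Ndufs1, Ndufa9 and Ndufs5 of complex I, Sdha of complex II, Uqcrc2 of complex III, and Cox5a and Ndufa4l2 of complex IV.

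**Figure D3:**
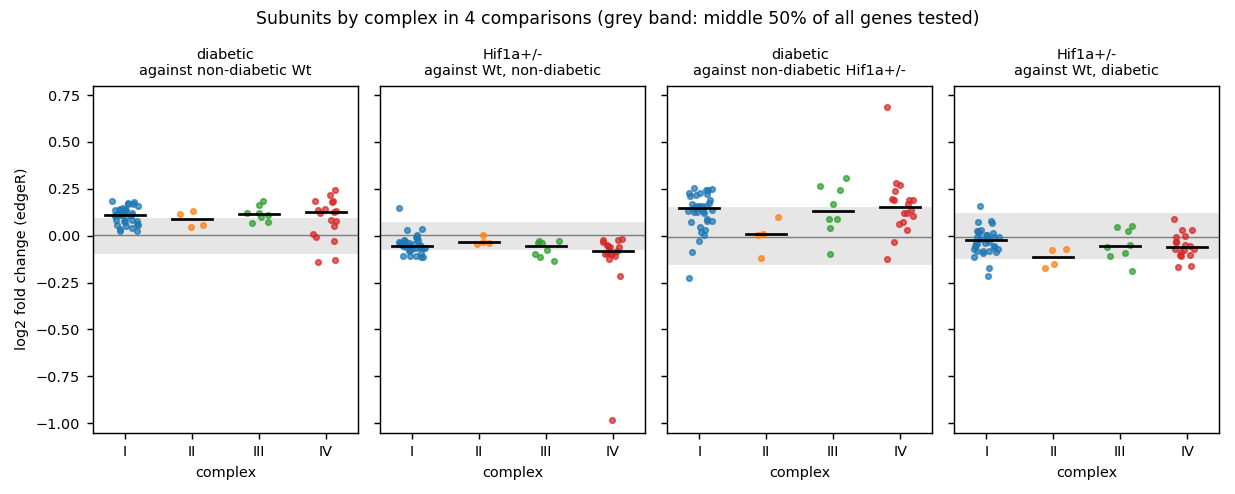
Points give the log2 fold change of each tested member in the 4 pairwise comparisons, by complex, with the median of a complex as a line and the middle 50% of all tested genes as a grey band. Complexes I, III and IV have medians of 0.13 to 0.15 between diabetic and non-diabetic Hif1a+/- offspring, while complex II has 0.01.

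Ndufs1 encodes the large iron-sulphur subunit of complex I, through which electrons pass from the flavin site, and lies at chr1:63143596-63176833 on the minus strand (GRCm38). In non-diabetic Wt its level was 819, 833 and 814 CPM and in diabetic Wt 932, 784 and 790 CPM. In Hif1a+/- offspring it was 842, 832 and 845 CPM without and 747, 721 and 689 CPM with maternal diabetes. The 3 diabetic Hif1a+/- libraries were the lowest of the 12 and overlapped with no other group. Against non-diabetic Hif1a+/- the log2 fold change was -0.22 (SE 0.08), with an edgeR p of 0.0175 and an adjusted p of 0.353. The adjusted p was 0.222 by DESeq2 and 0.0722 by limma-voom, so the call rested on the tool. Without replicate 72 the log2 fold change was -0.22. Of its exon bases, 6.16% overlap genes on the opposite strand, whose reads cannot be told apart without strand.

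Other core subunits of complex I did not share this value. Ndufs7, the subunit that holds the last iron-sulphur cluster before ubiquinone, had 521, 602 and 552 CPM in non-diabetic and 661, 653 and 634 CPM in diabetic Hif1a+/- offspring, without overlap. Its log2 fold change was 0.22 (SE 0.10), with an edgeR p of 0.0531 and an adjusted p of 0.42. Ndufs8 and Ndufv1, the latter the flavin subunit that takes electrons from NADH, had 0.13 each, and Ndufv2 had 0.01. Ndufc1, a small accessory subunit, had the highest value of complex I, 0.26 (SE 0.12), with 255, 303 and 282 CPM against 327, 336 and 341 CPM. Its groups were apart as well, and in diabetic Wt it spanned 254 to 366 CPM, wider than both.

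In complex II the flavoprotein Sdha, which oxidises succinate, had the lowest value and Sdhc, one of its membrane anchors, the highest. Sdha had 1629, 1676 and 1664 CPM without and 1646, 1490 and 1442 CPM with maternal diabetes in Hif1a+/- offspring. The groups overlapped through replicate 66, and the log2 fold change was -0.12 (SE 0.09). Sdhc had 705, 785 and 729 CPM against 785, 796 and 793 CPM, which met at the edge, and a log2 fold change of 0.10 (SE 0.11). The iron-sulphur subunit Sdhb and the anchor Sdhd had 0.01 each.

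In complex III the small subunit Uqcr10 was highest at 0.31 (SE 0.16), with 369, 390 and 394 CPM against 463, 503 and 461 CPM and no overlap. The core protein Uqcrc2 was lowest at -0.10 (SE 0.10), with 1352, 1372 and 1337 CPM against 1355, 1255 and 1190 CPM, which overlapped. Of its exon bases, 19.75% overlap Pdzd9 on the opposite strand. Uqcrc1, the other core protein, had 0.09, and the Rieske iron-sulphur protein Uqcrfs1 had 0.04. The 2 core proteins thus had values on opposite sides of 0.

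In complex IV, Cox4i1 had 1818, 2021 and 1923 CPM without and 2258, 2432 and 2260 CPM with maternal diabetes in Hif1a+/- offspring. These groups were apart, with a log2 fold change of 0.27 (SE 0.14), an edgeR p of 0.0777 and an adjusted p of 0.456. Cox8b had 589, 670 and 667 CPM against 764, 784 and 792 CPM, a log2 fold change of 0.28 (SE 0.16), also without overlap. Cox5a and Cox5b, subunits of the matrix side, had -0.03 and 0.03. The lowest and highest values of the complex belonged to genes of low level, Ndufa4l2 with -0.12 (SE 0.14) and Cox6b2 with 0.69 (SE 0.52).

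The values of this comparison were ordered by coding length, for the members and for other genes. The median log2 fold change of members was 0.19 for the 19 with at most 300 coding bases, 0.13 for the next 31 up to 600, 0.06 for the next 6 up to 900 and 0.03 for the next 7 up to 1500. The 2 members above 1500 bases were Sdha and Ndufs1, with 1992 and 2181 coding bases, and had a median of -0.17. Other tested genes in the same bins had medians of 0.13, 0.11, 0.06, 0.02 and -0.07. Spearman's rho with coding length was -0.457 over 65 members and -0.315 over the 13308 tested genes with a coding length, which share the same libraries and are given as descriptions.

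Up to 600 coding bases, 27 of 50 members, or 54%, were apart and higher, against 25.67% of 1593 other tested genes and 35.17% of the 236 of these with 100 CPM or more. In the same class, 94% of members had a positive log2 fold change, against 72.38% and 79.66%. Above 600 bases, 4 of 15 members were apart and higher and 1 lower, where other genes had 9.35% and 14.97%. Up to 600 bases the median was 0.16 for members and 0.13 for other genes at 100 CPM or more. The part of coding length in the members' values was not tested.

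**Figure D4:**
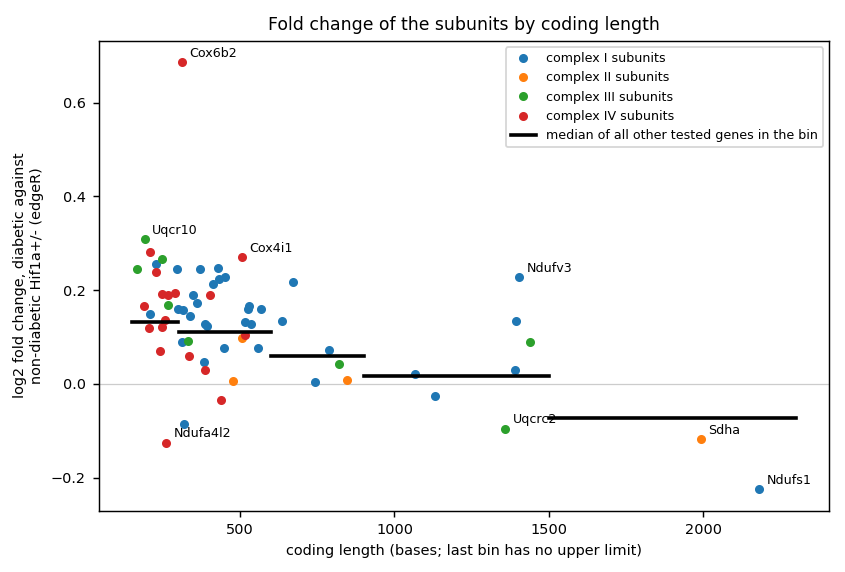
Each point is a member's log2 fold change between diabetic and non-diabetic Hif1a+/- offspring against its coding length in bases, coloured by complex, and black lines give the medians of other tested genes in bins of length. The lines go from 0.13 at up to 300 bases to -0.07 above 1500 bases, where Sdha and Ndufs1 lie at -0.12 and -0.22.

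Maternal diabetes in Wt offspring gave a median of the same sign but no separation of groups. The median log2 fold change was 0.11 against 0.0056 for all genes and 0.05 for other genes at 100 CPM or more. Of 65 members, 61 had a higher mean, all of complexes I, II and III and 14 of 18 of complex IV. This was 93.85% of members, against 73.14% of other genes at 100 CPM or more. Up to 600 coding bases it was 92% of 50 members, median 0.12, against 86.86% of such other genes, median 0.07. The medians were 0.11, 0.09, 0.11 and 0.12 in complexes I to IV. No member was apart in either direction, where 2.14% of all genes were higher and 3.4% lower. edgeR called 0 members and 0% of all genes, with 0 members and 2.78% of all genes under an unadjusted p of 0.05, and DESeq2 called 0 members and 0.0148% of all genes. The smallest p belonged to Cox7a1, with 813, 804 and 1091 CPM in non-diabetic and 1071, 886 and 1246 CPM in diabetic Wt, a log2 fold change of 0.24 (SE 0.14). Both groups overlapped through replicates 89 and 7. Ndufv1 had 0.17 (SE 0.11), and Ndufa9, a complex I subunit near the ubiquinone site, 0.14 (SE 0.09). A higher mean was found for 8 of 8 macrophage markers, median 0.23, and 0 of 4 tested red cell markers, median -1.68. It was also found for 7 of 10 cardiomyocyte, 0 of 4 atrial, 3 of 8 fibroblast and 4 of 7 endothelial markers. Of smooth muscle and pericyte, tested epicardial and tested adipocyte markers, 4 of 8, 2 of 4 and 1 of 4 were higher. The part of these cells in the members' values was not tested in Wt. The median ranged from 0.04 without replicate 80 to 0.23 without replicate 7, and without replicate 7 the number of members apart and higher went from 0 to 28, with 8.44% of all genes.

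Between the genotypes from non-diabetic pregnancy the members differed little and mostly downward. The median log2 fold change of Hif1a+/- against Wt was -0.06 against 0.0019 for all genes, and 5 of 65 members had a higher mean, among them Ndufs1 and Sdha. No member of complex III or IV was among them. These were 7.69% of members, against 55.6% of other genes at 100 CPM or more. Up to 600 coding bases it was 4% of members, median -0.06, against 27.97% of such other genes, median -0.03. Spearman's rho with coding length was 0.421 over the members and 0.163 over tested genes with a coding length. edgeR called 0 members and 0% of all genes, 0 members had p under 0.05 against 0.959% of all genes, and DESeq2 called 0 members and 0.00369%. Members apart numbered 0 higher, where 2.55% of all genes were, and 1 lower, where 2.26% were. That member was Cox4i2, with 11.5, 12.5 and 14.5 CPM in Wt and 11.3, 11.3 and 10.7 CPM in Hif1a+/-, a log2 fold change of -0.21 (SE 0.15). Cox6b2 had the smallest p, 0.0848, from 3.55, 0.68 and 1.39 CPM against 0.97, 0.79 and 0.96 CPM, low values that overlapped. Red cell markers moved with this comparison, with 4 of 4 tested lower in Hif1a+/- and an unadjusted p under 0.05 for each, and their summed level reached 7323 CPM in non-diabetic Wt replicate 25, the highest of the 12 libraries, and 185 CPM in the lowest. Their part in the members' values was not tested. The direction of the median rested on single libraries, from -0.13 without replicate 42 to 0.03 without replicate 89.

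Between the genotypes from diabetic pregnancy the median was -0.05, against -0.0084 for all genes, with 17 of 65 members, or 26.15%, higher. Other genes at 100 CPM or more had a median of -0.04, with 34.53% higher. Up to 600 coding bases, those other genes had a median of 0.02, with 55.93% higher. The 50 members of that length had a median of -0.04, with 30% higher. Complex II was lowest at -0.11, with 0 of 4 members higher, and complexes I, III and IV had -0.03, -0.05 and -0.06. edgeR called 0 members and 0% of all genes, 1 member had p under 0.05 against 5.35% of all genes, and DESeq2 called 0 members and 0.155%. That member was Ndufs1, with a log2 fold change of -0.22 (SE 0.08), a p of 0.0208 and an adjusted p of 0.862. It was the only member apart and lower, where 3.62% of all genes were, and without diabetic Wt replicate 50 its log2 fold change was -0.13. Next were Sdha, with 1908, 1578 and 1674 CPM in Wt against 1646, 1490 and 1442 CPM and a log2 fold change of -0.17 (SE 0.09), and Uqcrc2 with -0.19 (SE 0.10). Both overlapped between the groups. Cox8a, the form of subunit 8 found in most tissues, was the only member apart and higher, where 4.32% of all genes were, at 147, 149 and 153 CPM against 155, 162 and 162 CPM. All 8 macrophage markers, median 0.48, and 7 of 8 fibroblast markers, median 0.30, had a higher mean in Hif1a+/- here. edgeR called none of them and DESeq2 called 1, a fibroblast marker. By contrast 0 of 7 endothelial, 2 of 8 smooth muscle and pericyte and 0 of 4 tested red cell markers were higher. Their medians were -0.08, -0.15 and -0.78. Of cardiomyocyte, atrial, tested epicardial and tested adipocyte markers, 3 of 10, 4 of 4, 1 of 4 and 3 of 4 were higher. The part of these cells in the members' values was not tested here. The median of the members went from -0.15 without replicate 7 to 0.05 without replicate 80, and without replicate 7 the members apart and lower numbered 35, with 9.51% of all genes.

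Diabetic Hif1a+/- offspring were also set against non-diabetic Wt, and this comparison shares libraries with the others above. The median was 0.07, with 50 of 65 members higher, against -0.0037 for all genes, and 0.01 to 0.17 with 1 library left out. The 4 tested red cell markers were lower, median -2.47, each with an unadjusted edgeR p under 0.05. Their summed levels overlapped, with 7323, 491 and 705 CPM in non-diabetic Wt replicates 25, 42 and 89. Diabetic Hif1a+/- replicates 66, 72 and 77 had 719, 734 and 185 CPM. The 8 macrophage markers were higher, median 0.73, with an unadjusted edgeR p under 0.05 for 7. All 8 fibroblast markers were higher as well, median 0.27. Of cardiomyocyte, atrial, endothelial and smooth muscle and pericyte markers, 5 of 10, 0 of 4, 1 of 7 and 4 of 8 were higher. Of tested epicardial and adipocyte markers, 2 of 4 each were. The part of these marker lists in the members' values was not tested. edgeR called 0 members and 0% of all genes, 1 member, Ndufs1, had p under 0.05 against 8.85% of all genes, and DESeq2 called 0 members and 0.454%. Ndufs1 had a log2 fold change of -0.19 and a p of 0.0357, with an adjusted p of 0.545. It was also apart and lower, where 7.11% of all genes were. Ndufc1 and Ndufc2, accessory subunits of complex I, were apart and higher, where 7.47% of all genes were, and Ndufc1 had 0.20.

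The interaction asks whether maternal diabetes had a different log2 fold change in the genotypes. Its median over the members was 0.02, with 39 of 65 above 0, against -0.0114 for all genes. edgeR called 0 members and 0% of all genes, 0 members had p under 0.05 against 2.52% of all genes, and DESeq2 called 0 members and 0% of all genes. The smallest p values were those of Ndufs1, -0.25 (SE 0.12) with p of 0.0535 and an adjusted p of 0.998, and Sdha, -0.18 (SE 0.13). All 4 members of complex II were below 0, with a median of -0.07. Spearman's rho of the interaction with coding length was -0.388 over the members and -0.216 over tested genes with a coding length. The part of length in the values of complex II was not tested. Values above 0 were found for 8 of 8 macrophage markers, median 0.68, and 4 of 4 tested red cell markers, median 2.14. They were also found for 4 of 10 cardiomyocyte, 1 of 4 atrial, 7 of 8 fibroblast and 0 of 7 endothelial markers. Of smooth muscle and pericyte, tested epicardial and tested adipocyte markers, 2 of 8, 1 of 4 and 4 of 4 were above 0. Their part was not tested. The separation of groups among Hif1a+/- offspring is not a test of a difference between the genotypes.

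Averaged over both genotypes, maternal diabetes had a median of 0.12, with 60 of 65 members higher, against -0.0027 for all genes, and 0.08 to 0.19 with 1 library left out. All 8 macrophage markers were higher, median 0.53, with an unadjusted p under 0.05 for 7 and a DESeq2 call for 4, and their part in the members' values was not tested. edgeR called 0 members and 0% of all genes. Under an unadjusted p of 0.05 there were 4 members against 11.3% of all genes, namely Cox4i1 with 0.23 (SE 0.10), Cox7a1 with 0.22 (SE 0.10), Cox8b with 0.25 (SE 0.11) and Ndufc1 with 0.19 (SE 0.09). Their p values were 0.0397, 0.0435, 0.0462 and 0.0488, and 3 of the 4 encode complex IV subunits. DESeq2 called 0 members and 1.45% of all genes, but 10 members and 4.67% of all genes without non-diabetic Wt replicate 89, and 13 members and 3.05% without diabetic Wt replicate 7. With any other library left out it called 0 members. Without a filter on low counts edgeR called 1 member, Cox8b, and 2.19% of all genes. Averaged over both pregnancies, Hif1a+/- against Wt had a median of -0.05, with 6 of 65 members higher, against -0.0045 for all genes, and -0.11 to -0.0042 with 1 library left out. The 4 tested red cell markers were lower, median -1.86, each with an unadjusted edgeR p under 0.05, and their part was not tested. Non-diabetic Wt replicate 25 had a summed level of 7323 CPM, and the next highest library, diabetic Wt replicate 50, had 1771 CPM. edgeR called 0 members and 0% of all genes, 0 members had p under 0.05 against 2.69% of all genes, and DESeq2 called 0 members and 0.0259%.

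Complex IV has pairs of isoforms whose balance marks heart and skeletal muscle, and the LV used the muscle forms in all groups. Cox6a2 took 94.3 ± 0.59% of the reads of Cox6a1 and Cox6a2 together in non-diabetic Wt, 94.8 ± 1.07% in diabetic Wt, 94.2 ± 0.20% in non-diabetic Hif1a+/- and 94.7 ± 0.44% in diabetic Hif1a+/- (SD, n = 3). Cox7a1 took 62.1 ± 0.84%, 64.0 ± 2.10%, 62.9 ± 0.18% and 62.9 ± 0.87% of its pair with Cox7a2 in the same order. The differences between groups in both pairs lay within the overlap of their libraries. Cox8b took 81.9 ± 2.46%, 83.8 ± 2.94%, 81.4 ± 0.42% and 83.0 ± 0.12% of its pair with Cox8a. Between the Hif1a+/- groups this was 1.65 percentage points higher with maternal diabetes, without overlap.

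The isoforms linked to low oxygen were minor partners. Cox4i2 took 0.629 ± 0.053%, 0.554 ± 0.043%, 0.577 ± 0.037% and 0.514 ± 0.063% of its pair with Cox4i1 (SD, n = 3, in the same order of groups), with overlap between groups in all 4 pairwise comparisons. Ndufa4l2 took 1.87 ± 0.19%, 1.53 ± 0.16%, 1.86 ± 0.09% and 1.57 ± 0.23% of its pair with Ndufa4. In Wt it was -0.345 percentage points with maternal diabetes, without overlap, and in Hif1a+/- offspring -0.290 points, with overlap. Of 20 two-sided exact permutation tests on the shares, the smallest p was 0.1, the lowest that 3 against 3 samples can give, and 0.75 after Benjamini-Hochberg adjustment. Without replicate 72 the Cox8b difference was 1.71 points.

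**Figure D5:**
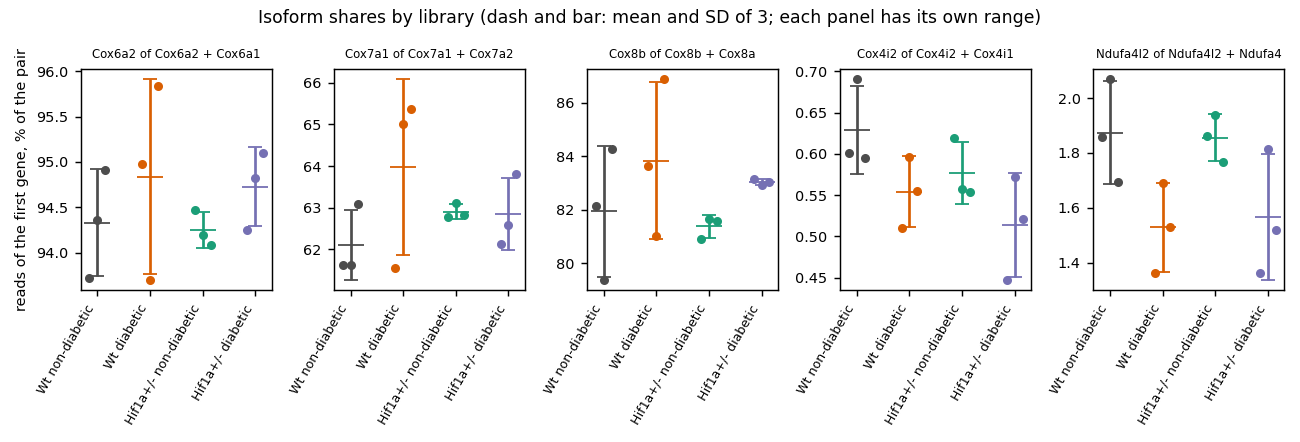
Points give, for each library, the share of an isoform pair's reads that belongs to the first named gene in percent, with the mean and SD of 3 libraries per group, and each panel has its own axis. Cox6a2 stays between 94.2% and 94.8% in group means, and Cox4i2 between 0.514% and 0.629%.

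The other genes of the pathway were taken from lists of subunits, assembly factors and regulators. The 16 nuclear subunits of ATP synthase (complex V), which uses the proton gradient, were closest to the members. All 16 had a higher mean with maternal diabetes in Wt, median 0.12, and in Hif1a+/- offspring, median 0.14, and all 16 a lower mean in Hif1a+/- against Wt from non-diabetic pregnancy, median -0.07. None passed the adjusted threshold in edgeR or DESeq2, and Atp5e, the epsilon subunit, had the smallest p among Hif1a+/- offspring, 0.0378, with a log2 fold change of 0.41.

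Assembly factors, which help to build the complexes, were split. Among Hif1a+/- offspring, maternal diabetes gave a higher mean for 10 of 16 factors of complex I, 4 of 4 of complex II, 4 of 6 of complex III and 10 of 19 tested of complex IV, and edgeR and DESeq2 called none. The genes with the smallest p were Acad9 of complex I with -0.19, Sdhaf1 of complex II with 0.43, Uqcc2 of complex III with 0.26 and Coa3 of complex IV with 0.29. Their unadjusted p values were 0.0435, 0.0173, 0.103 and 0.021. Of 7 tested carriers and subunits outside the symbol rule, the 3 nuclear ones were higher, with Cyc1 (cytochrome c1) at 0.12, Ndufab1 (an acyl carrier protein of complex I) at 0.08 and Cycs (cytochrome c) at 0.03. The 4 lower ones were mitochondrially encoded genes, whose reads the authors had removed and of which at most 0.0005% of counts remained.

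Of 17 transcriptional regulators of mitochondrial genes, 5 were higher and 12 lower in the same comparison, with a median of -0.09, and none passed the adjusted threshold in edgeR or DESeq2. Tfb2m, a factor for mitochondrial transcription, had -0.30 with an edgeR p of 0.00389, an adjusted p of 0.275 and a DESeq2 adjusted p of 0.144. Esrrg, a nuclear receptor that acts on energy metabolism genes of the heart, had -0.36, and Gabpa, which binds the ETS word, -0.24. The 7 genes of a list of Hif1a and HIF-1 targets that act on mitochondria had 4 higher and 3 lower, and Pdk1, which limits pyruvate entry into the mitochondrion, had -0.27 with p of 0.0116. The members and the regulators had medians of opposite sign, and no test of their relation was made.

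Markers of other cells moved with the comparison among Hif1a+/- offspring, and macrophage markers were also higher with maternal diabetes in Wt, median 0.23. All 8 macrophage markers had a higher mean with maternal diabetes, with a median log2 fold change of 0.92, and DESeq2 called 5 of them while edgeR called 0. Their summed level was 479 to 707 CPM in diabetic and 237 to 354 CPM in non-diabetic Hif1a+/- libraries, with no marker at 0. All 8 fibroblast markers were higher too, median 0.30, with 1511 to 2152 CPM against 1492 to 1643 CPM, and 0 of 4 atrial markers were. The 10 cardiomyocyte markers had 5 higher and 5 lower, median 0.05. In the same comparison 2 of 7 endothelial, 4 of 8 smooth muscle and pericyte, 3 of 4 tested epicardial, 4 of 4 tested red cell and 3 of 4 tested adipocyte markers had a higher mean. The part of these cells in the members' values was not tested. Among the libraries named above as high or low in members, replicate 14 had the lowest summed cardiomyocyte markers, 113007 CPM, and replicate 50 the highest, 131352 CPM. Replicates 7, 25 and 42, low in members, had 117195, 117801 and 122038 CPM. Replicates 89 and 80, high in members, had 122417 and 130918 CPM. Of the remaining Hif1a+/- libraries, non-diabetic replicates 32 and 44 had 123711 and 124666 CPM. Diabetic replicates 66, 72 and 77 had 127909, 117929 and 125608 CPM, so the marker sums did not keep the order of the members throughout.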

How the data were processed

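RNA from the left ventricle of 12 offspring, 3 per group, was sequenced in libraries that the study's methods call 3′-seq. The submitters' processing notes name Trimmomatic, STAR 2.5.2b, HTSeq, DESeq2 and GRCm38. Per the study's methods, ribosomal and mitochondrial reads were removed before alignment, and reads were counted with GENCODE M8. The authors deposited raw counts, whole reads for each gene without normalisation, with 5 tally lines that were left out of totals and tests. The reads tallied as outside annotated genes came to 3.34% to 4.61% and those not unique to 12.4% to 17.0% of all reads tallied. The authors also deposited normalised counts, which were not used here. Genotype, pregnancy and replicate came from the labels. Animals of a group came from different litters, and the labels do not say whether groups shared litters.

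Counts were tested with edgeR's quasi-likelihood test (edgeR 4.0.16, R 4.3.3) with TMM normalisation, the default filter by group (14706 of 27093 genes kept), 12 samples in 1 fit and Benjamini-Hochberg adjustment over all tested genes at a threshold of 0.1, as in the study's methods. The biological coefficient of variation was 13.7%. Groups called apart did not overlap in TMM-normalised CPM. Alternatives were DESeq2 1.42.0, limma-voom 3.58.1, other scalings, no filter and leaving out each library. Symbols and coding lengths came from GENCODE M21 of GRCm38, and promoter windows from RefSeq. The scripts were tested on simulated data.

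The members and lists were chosen with earlier results of these data known. Genes named were, in each of the first 6 comparisons, the 3 members with the smallest p, those that DESeq2 called (none), the highest and lowest of each complex in diabetic against non-diabetic Hif1a+/-, the isoform pairs, 12 core subunits, and the gene of each pathway list with the smallest p. Uqcrc1, Sdhd, Ndufb4, Cox7b2, Ndufc2, Esrrg, Gabpa and members named in counts were named after their values were seen, and the counts with a library left out or another scaling of members apart were added after seeing the data. The values of 1 member are not reported here.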

Additional observations from a re-analysis of the deposited data

How the results depend on the processing

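With 3 animals per group the members' medians depended on single libraries. Under the alternatives run, the median for genotype changed sign in non-diabetic pregnancy (0.02 in limma-voom, -0.13 to 0.03 with 1 library left out) and in diabetic pregnancy (-0.15 to 0.05), as did that of the interaction (-0.08 in limma-voom, -0.08 to 0.11). The medians for maternal diabetes stayed above 0 in each genotype and over both. Call counts in edgeR stayed at 0 members with 1 library left out. The exceptions among other settings were limma-voom among Hif1a+/- offspring with 1 member (Ndufs1, log2 fold change -0.24) and edgeR without a filter over both genotypes with 1 member (Cox8b). DESeq2 called 0 to 1 members among Hif1a+/- offspring (1, Ndufs1, without diabetic Wt replicate 50), and over both genotypes 10 members (4.67% of all genes) without non-diabetic Wt replicate 89 and 13 (3.05%) without diabetic Wt replicate 7. The cause was not tested.

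Members apart, counted anew with 1 library left out, an alternative chosen after seeing the data, numbered 0 to 28 higher and 0 to 1 lower for maternal diabetes in Wt, 0 to 3 higher and 1 to 7 lower for genotype in non-diabetic pregnancy, 31 to 39 higher and 1 to 3 lower for maternal diabetes in Hif1a+/-, and 1 to 6 higher and 1 to 35 lower for genotype in diabetic pregnancy. Of all genes, in the same order, 4.47% to 8.44% higher and 5.75% to 9.62% lower, 5.02% to 7.96% higher and 4.18% to 7.99% lower, 14.95% to 18.19% higher and 17.05% to 20.41% lower, and 6.91% to 14.88% higher and 6.64% to 16.75% lower were apart. Scaled by total counts alone, they numbered 0 lower for genotype in non-diabetic pregnancy (2.33% of all genes), and 36 higher (10.12%) and 3 lower (14.25%) for maternal diabetes in Hif1a+/-.

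Differences in isoform share that changed sign with 1 library left out were those of genotype for Cox6a2 (-0.384 to 0.207 points in non-diabetic and -0.68 to 0.388 in diabetic pregnancy), Cox8b (-1.84 to 0.613 and -2.23 to 0.708) and Ndufa4l2 (-0.108 to 0.0801 and -0.0863 to 0.14), and that of maternal diabetes in Hif1a+/- for Cox7a1 (-0.544 to 0.297). No paired analysis was possible because the groups share no replicate numbers.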
